A study of Mus musculus with 6 samples.

Results

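A set of 10 genes reported as direct targets of the microRNA miR-155, and acting outside PI3K signalling, was described in tumours after the microRNA was withdrawn. They are Trp53inp1, Hbp1, Fbxo11, Bach1, Picalm, Arid2, Jarid2, Cebpb, Socs1 and Tab2, the last listed under its older name Map3k7ip2. All 10 were chosen as reported targets, whatever their fold, though earlier results of these data were known when the choice was made. All 10 were found by name among 29209 rows of the authors' deposited table. Each has a p-value there and so belongs to the 18543 rows that were tested.

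The study compared 3 tumours from mice given doxycycline (DOX) in chow at 2.3 mg per kg for 16 hours before harvest with 3 tumours from mice given none. All 6 were subcutaneous tumours in NCr nude mice, which lack a thymus, grown from injected spleen cells of diseased mir-155LSLtTA animals. The tTA of that allele name is the tetracycline-controlled transactivator, which DOX releases from DNA, so that the labels call DOX tumours miR-155 withdrawal and untreated tumours miR-155 overexpression. The labels give neither the age of the mice, nor the cell type that drives the allele, nor the number of donor animals behind the injected cells. DOX was not given to any tumour free of the transgene, and an effect of the drug cannot be told apart from that of losing miR-155. The table holds a fold and p-values per gene and no value per sample, so the spread of a gene over the 6 tumours and the depth of each library are unknown. It does not say which group is the numerator of the fold. Folds are read here as DOX over no DOX, and every "rose" and "fell" exchanges places if the authors divided the other way.

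A microRNA guides an Argonaute protein to messenger RNAs that pair with its seed, the bases near its 5′ end, and the bound messages are repressed and in many cases degraded. Relief of that repression raises the level of a target message when the microRNA disappears. In B lymphocytes miR-155 is induced on activation, and its overexpression in mice is known to give B-cell malignancies. The sequence below, from RefSeq (GRCm38.p6), is mature mouse miR-155-5p with the seed in capitals, shown because every match described later is read from those 7 bases.
miR-155-5p: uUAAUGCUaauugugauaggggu

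Matches were sought in annotated 3′ UTRs in 3 strengths on the sense strand. An 8mer is AGCATTAA, a 7mer-m8 is AGCATTA without the closing A, and a 7mer-A1 is GCATTAA without the opening A, so each 8mer contains both 7mers and was counted once. Of the 10 genes, 9 held at least 1 such match in the transcript with the longest annotated 3′ UTR (GENCODE M21), and 7 held an 8mer. Across 21005 genes with an annotated 3′ UTR the shares were 12.6% with any of the 3 and 2.99% with an 8mer. Since reported targets are often found by their seed match, the presence of matches is no independent result. A match is a description and not evidence of binding.

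The windows below end at the position opposite the first microRNA base, carry the match in capitals, and show the matches on which the comparison of these genes turns. None paired at more than 2 of the 4 microRNA bases from 13 to 16, the stretch in which extra pairing can add to the seed.
Trp53inp1 8mer: agtacatttttacactaacacaAGCATTAA
Bach1 8mer: aatttctctctatgaacagtttAGCATTAA
Bach1 7mer-m8: taataatagaaatatattgcatAGCATTAt
Fbxo11 7mer-m8: ggatgtcagagctcgggattttAGCATTAc
Fbxo11 7mer-A1: gctggaaattacagcaatttcctGCATTAA
Picalm 7mer-m8: aaaagcactacatttaaaactcAGCATTAg
Hbp1 8mer at the stop codon: agaaccaactcaggctctcaacAGCATTAA
Hbp1 8mer in the 3′ UTR: tgaggattgctttctccattagAGCATTAA
Arid2 8mer: ctacgtgagcagatgaaatagaAGCATTAA
Jarid2 first 8mer: tttagagaactgattttgttttAGCATTAA
Jarid2 second 8mer: ctctgcttgtgtccctcacatcAGCATTAA
Cebpb 8mer: tttgagaaccttttccgtttcgAGCATTAA
Tab2 8mer: aaagcaatgccataaggtagaaAGCATTAA
Socs1 8mer: tgaccggctgccgctgtgccgcAGCATTAA

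Positions are given on GRCm38, the build of the annotation and not the mm9 of the authors. The Trp53inp1 8mer lies at chr4:11170429-11170436 on the plus strand, starting at base 470 of a 3′ UTR of 4420 bases. The Bach1 8mer lies at chr16:87732188-87732195 (plus) and its 7mer-m8 at chr16:87732400-87732406. The Fbxo11 matches lie at chr17:87991842-87991848 and chr17:87991107-87991113 (minus) in a 3′ UTR of 1187 bases, and the Picalm 7mer-m8 at chr7:90208432-90208438 (plus). For Arid2 the 8mer is at chr15:96402469-96402476 (plus), and for Jarid2 the 8mers are at chr13:44920093-44920100 and chr13:44920866-44920873 (plus). The Cebpb 8mer is at chr2:167690366-167690373 (plus), 45 bases before the end of a 3′ UTR of 506 bases. For Tab2 it is at chr10:7906691-7906698 (minus), and for Socs1 at chr16:10784206-10784213 (minus), starting at base 20 after the stop codon. All of these lie within a single exon.

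**Figure D1:**
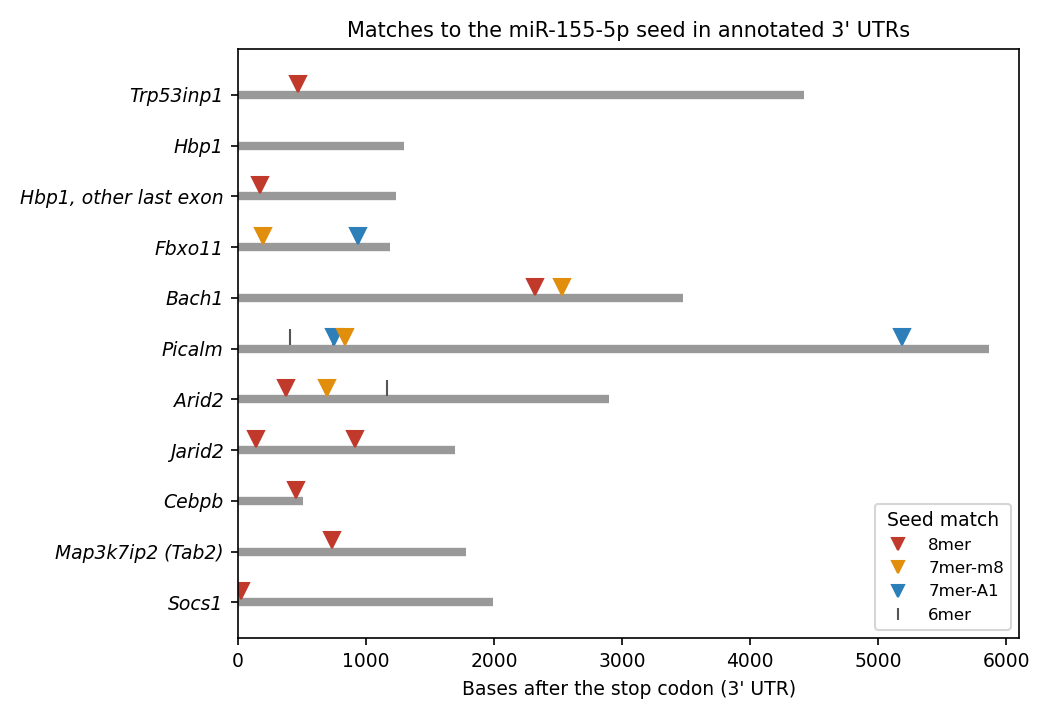
Matches to the miR-155-5p seed along the annotated 3′ UTR of each gene, in bases after the stop codon; each grey bar is a 3′ UTR drawn to scale, triangles are 8mer, 7mer-m8 and 7mer-A1 matches and ticks are 6mers. Picalm has the longest 3′ UTR (5868 bases) with 3 matches of 7 bases, Jarid2 has 2 8mers, and Hbp1 has none in its longest 3′ UTR but 1 in the transcript with another last exon; 1 of the 2 Picalm 6mers is hidden by the 7mer-A1 beside it.

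The genes differed in how unusual their matches were for the length of the 3′ UTR. Among 3′ UTRs within 20% of the length of that of Cebpb, 4.61% held a 7mer or 8mer and 1.19% an 8mer, and for Picalm the same shares were 43.7% and 11.7%. Bases around the matches were rich in A and T for Cebpb (71.7% over 30 bases on each side) and poorest in them for Socs1 (46.7%). Arid2, Bach1 and Fbxo11 had 2 matches of 7 bases or more, as did Jarid2, and the other genes with a match had 1, apart from Picalm with 3.

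After 16 hours of DOX, 5 of the 10 genes were called as risen in the authors' deposited table and 0 as fallen, at an adjusted p under 0.05. Each gene is counted here by the row found under its name, and the further rows of Picalm and Arid2 are given below. Over all tested rows, 5.72% were called as risen and 5.61% as fallen in the authors' deposited table. The fold was above 1 for all 10 genes, against 59.4% of tested rows, and 7 of the 10 had an unadjusted p under 0.05 with a fold above 1, against 11.9% of rows (10.4% with a fold under 1), in the authors' deposited table. A fold of at least 2 was listed for 6 of the 10, against 36.0% of rows, and 5 of the 10 also passed at 0.05, against 5.68%, in the authors' deposited table. With the threshold at 0.01 the risen genes numbered 2, against 3.11% of rows, and at 0.1 they numbered 6, against 7.74%, in the authors' deposited table. Their log2 folds ran between 0.46 and 4.40 with a median of 1.14, a fold of 2.21, against a median of 0.17 over all rows with a finite fold in the authors' deposited table. These folds come from a single comparison of the same 6 tumours, so the 10 values are not independent of one another. The 10 genes were chosen with earlier results of these data known, so the counts are a description.

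**Figure D2:**
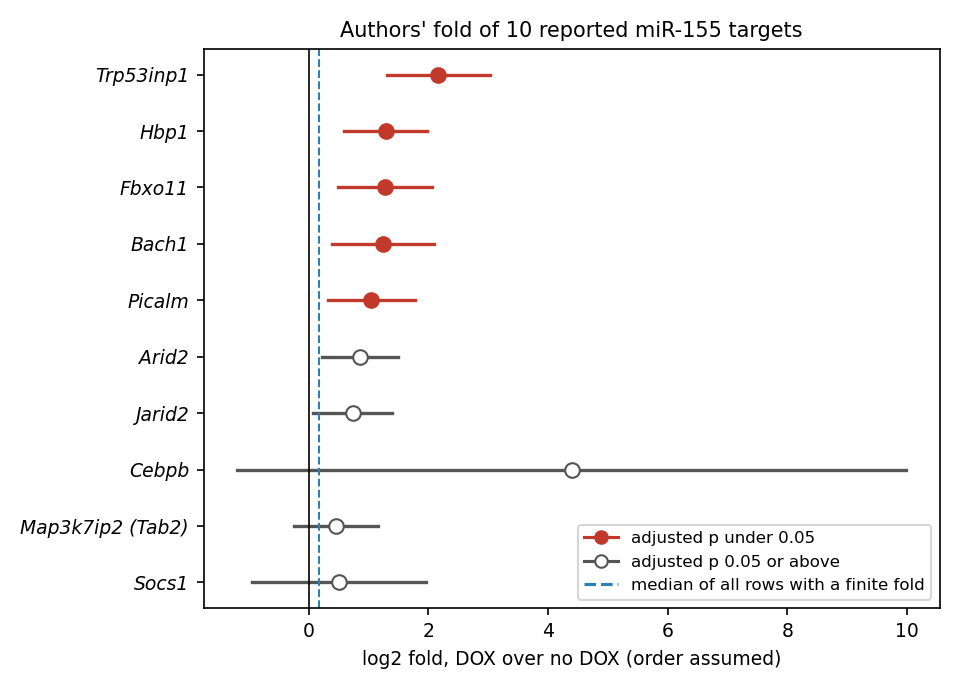
Log2 fold of each gene (DOX over no DOX, an assumed order), from the authors' deposited table, with a bar for an approximate 95% interval computed from the fold and the unadjusted p; filled red points have an adjusted p under 0.05 and the dashed line is the median of all rows with a finite fold. The 5 risen genes lie between 1.05 and 2.17, and the bar of Cebpb is by far the widest.

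Trp53inp1, a stress protein that p53 induces and that promotes cell death and autophagy, rose with the lowest adjusted p of the 10 rows found by name. Its fold was 4.50 (log2 2.17, adjusted p = 6.80e-05), and by unadjusted p it stood at rank 232 of 18543 in the authors' deposited table. An approximate 95% interval of its fold, computed from the fold and unadjusted p of the authors' deposited table with a normal approximation, ran from 2.47 to 8.20. Of the 10 rows found by name, that of Trp53inp1 alone also passed a Bonferroni adjustment over all rows (0.0158), computed from the authors' deposited p-values. A further Picalm row, described below, had a lower adjusted p (9.10e-08) in the authors' deposited table.

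Hbp1, an HMG-box repressor that binds the retinoblastoma protein and restrains Wnt target genes, rose 2.44-fold (log2 1.29, adjusted p = 0.00566) in the authors' deposited table. The transcript that carries the table's own RefSeq accession ends in an exon at chr12:31929383-31931005 and has no match in its 3′ UTR of 1295 bases. Another annotated Hbp1 transcript ends in a separate exon at chr12:31926254-31927507 and has 2 8mers, both printed above. The first of these, at chr12:31927490-31927497, ends on the stop codon itself, and the second, at chr12:31927315-31927322, starts at base 168 of a 3′ UTR of 1236 bases. Of 4 coding Hbp1 transcripts 1 carries such a match, and the table gives a single Hbp1 row, so the share of each transcript in its fold is unknown.

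Fbxo11, the substrate adaptor with which an SCF ubiquitin ligase marks BCL6 for degradation, rose 2.42-fold (log2 1.28, adjusted p = 0.0178) in the authors' deposited table. Bach1, a heme-sensing repressor that pairs with small MAF proteins and silences heme oxygenase, rose 2.36-fold (1.24, 0.0403) in the authors' deposited table. Picalm, which recruits clathrin to the plasma membrane and shapes coated pits, rose 2.07-fold (1.05, 0.0428) in the authors' deposited table. The approximate 95% intervals of these 3 folds ran from 1.41 to 4.17, from 1.31 to 4.26 and from 1.25 to 3.42, which overlap one another and that of Hbp1 (1.51 to 3.95), and differences between genes were not tested. Bach1 and the row named Picalm lay near the threshold, at ranks 1946 and 1993, beside 2101 rows past it in the authors' deposited table.

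Picalm has a further row under the clone name mKIAA4114, which RefSeq lists as its synonym. That row had a fold of 13.8 (log2 3.79, adjusted p = 9.10e-08) in the authors' deposited table, larger than the 2.07 of the row named Picalm. Arid2 likewise has a further row, 1700124K17Rik, with a fold of 2.21 (adjusted p = 0.252) in the authors' deposited table. Reads of 1 gene can be divided among such rows, so the folds of Picalm and Arid2 depend on a division that is uncertain.

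Arid2 and Jarid2, which belong to chromatin complexes, did not pass. Arid2, the subunit that defines the PBAF remodelling complex, had a fold of 1.81 (log2 0.86, adjusted p = 0.0680, unadjusted 0.00873), and Jarid2, a cofactor that guides Polycomb repressive complex 2, had 1.66 (0.73, 0.156, unadjusted 0.0288), both in the authors' deposited table. Their approximate 95% intervals, 1.16 to 2.83 and 1.05 to 2.63, lay above 1 and overlapped those of all 5 risen genes. The 8mers of these genes number 1 and 2, while Fbxo11 and Picalm rose with no 8mer in the 3′ UTR, so the strongest class of 3′ UTR match did not separate risen genes from the rest. Picalm does have an 8mer in its coding sequence, at chr7:90176393-90176400, and a 7mer-m8 at chr7:90176363-90176369. Among the 7 genes with an 8mer in the longest 3′ UTR, Trp53inp1 and Bach1 rose.

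Tab2, the adaptor that binds ubiquitin chains and activates the kinase TAK1, had a fold of 1.37 (log2 0.46, adjusted p = 0.529) in the authors' deposited table. Socs1, which binds and inhibits JAK kinases, had a fold of 1.42 (log2 0.51, adjusted p = 0.861) in the authors' deposited table. The approximate 95% intervals were 0.847 to 2.23 for Tab2 and 0.518 to 3.90 for Socs1. Both ranges hold no change and also the fold of 2.07 at which Picalm passed. The implied standard error on the log2 scale was 0.36 for Tab2, 0.74 for Socs1 and 0.37 for Picalm, from the authors' deposited table, so a rise like that of Picalm could have passed for Tab2 and was not detectable for Socs1.

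Cebpb, a transcription factor of myeloid and other differentiation, had the largest fold of the 10, 21.1 (log2 4.40), and an adjusted p of 0.399 in the authors' deposited table. Its approximate 95% interval ran from 0.437 to 1016, which gives no size. The standard error that its fold and unadjusted p imply on the log2 scale was 2.85, against a median of 0.61 over 13930 rows, from the authors' deposited table. For the other 9 genes the implied standard error lay between 0.33 and 0.74, below that median for 8 of the 10 genes.

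**Figure D3:**
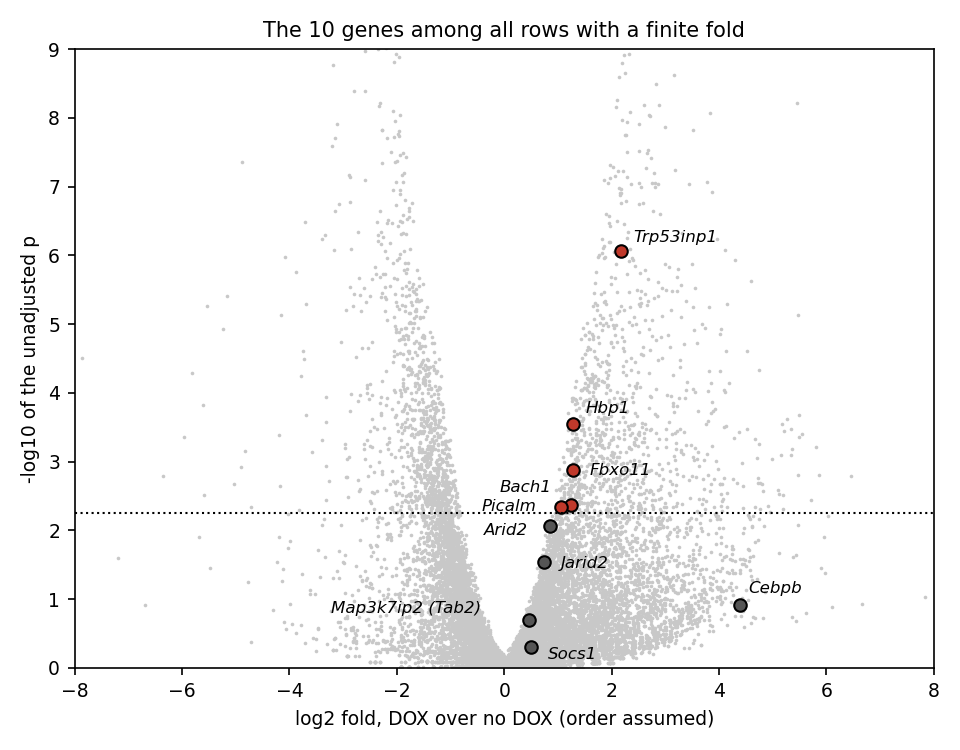
Log2 fold (DOX over no DOX, an assumed order) against -log10 of the unadjusted p for rows with a finite fold in the authors' deposited table (grey, 76 of 15784 outside the axes), with the 10 genes marked and red where the adjusted p is under 0.05; the dotted line is the largest unadjusted p that passed, 0.00566. Except for Cebpb and Socs1, the genes lie along the steep inner edge on the right, where a fold is estimated tightly.

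Markers of some cell types moved in the same comparison, in which 5.72% of all tested rows rose and 5.61% fell, by the authors' deposited table. All 20 macrophage markers had a fold above 1, 5 rose, and their median log2 fold was 2.52 with a range of 0.41 to 4.86 in the authors' deposited table. Fibroblast markers had a median of 1.88 (14 of 15 above 1, 2 risen), in the authors' deposited table. Neutrophil markers had one of 2.33 over 7 finite folds (10 of 11 above 1, 3 risen), in the authors' deposited table. The B lineage list had 5 risen and 2 fallen of 16, with a median of 0.71, in the authors' deposited table. Among T cell markers the median was -0.55 (0 of 10 called, 1 above 1 at an unadjusted p under 0.05), by the authors' DESeq table. For NK cell markers it was 3.38 over 7 finite folds (0 of 9, 0) and for endothelial markers 1.09 (1 of 12 fallen), by the authors' DESeq table. Cebpb and Bach1 are known to be expressed in myeloid cells too, and the part of host cells in the folds of the 10 genes was not tested. In tumour RNA, fewer cells of a type and less RNA per cell cannot be told apart, and the table gives no marker level, so the cells of the tumours could not be checked against the labels beyond the markers being tested.

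The direction of change also moved with transcript length. Among the 14779 tested rows with a transcript length, 15.2% of the decile of longest transcripts rose and 2.64% fell, and in the shortest 0.744% rose and 14.5% fell, in the authors' deposited table. Among the 10 genes, 6 fall in the 3 longest deciles, with a median transcript length of 4892 bases over all 10, against 3169 over those rows. Picalm and Arid2 stand in the decile with 15.2% risen. Trp53inp1, Bach1 and Jarid2 stand in the next, with 8.39% risen, and Tab2 in the one below it with 6.90%. Fbxo11 (6.16%), Hbp1 (3.52%), Socs1 (3.52%) and Cebpb (1.89%) stand in shorter deciles, the percentages being the share of rows that rose in the authors' deposited table. The part of length in the folds of the 10 genes was not tested.

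The 14779 tested rows matched to a coding transcript, the 10 genes included, were also grouped by their strongest 3′ UTR match. Of 475 genes with an 8mer 12.0% rose and 3.58% fell, and of 11640 with no match 4.19% rose and 7.25% fell, in the authors' deposited table. The 7mer-m8 class had 9.44% risen and 4.14% fallen of 869, the 7mer-A1 class 8.51% and 4.18% of 670, and the 6mer class 7.47% and 3.73% of 1125, in the authors' deposited table. Transcripts with an 8mer were also longer, with a median of 4798 bases against 2858 for those with no match. Among the 3 longest deciles alone, 15.9% of 271 genes with an 8mer rose, 12.2% of 833 with a 7mer and 9.19% of 3330 with a 6mer or nothing, in the authors' deposited table. The shares that fell were 1.85%, 2.04% and 3.84% in the same order, by the authors' deposited table. Median transcript lengths still differed there, at 6443, 6369 and 5697 bases, so length was not held fixed. These shares are descriptions across genes, which are not independent replicates.

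**Figure D4:**
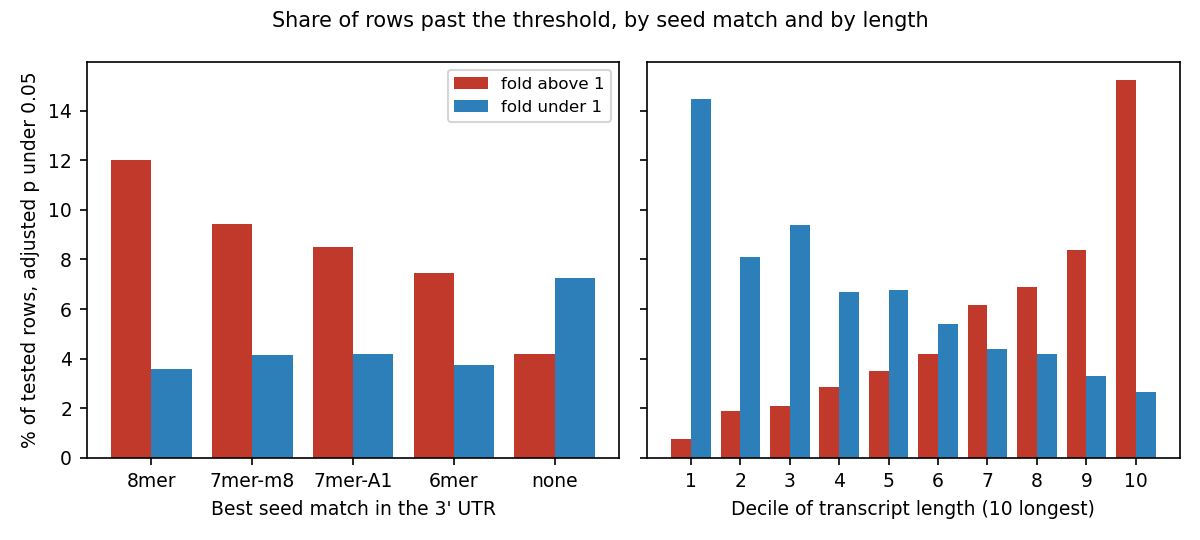
Percentage of tested rows with a matched transcript past an adjusted p of 0.05 in the authors' deposited table with a fold above 1 (red) or under 1 (blue), by strongest seed match in the 3′ UTR (left) and by decile of transcript length (right). The share risen is 12.0% for 8mers and 4.19% without a match, and 15.2% in the longest decile and 0.744% in the shortest.

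Other reported miR-155 targets outside PI3K signalling gave 5 risen and 0 fallen of 40 rows for 38 genes, 12.5% risen, by the authors' deposited table. Their median log2 fold was 0.49 over 37 finite folds, by the authors' deposited table. Over all tested rows 5.72% rose and 5.61% fell, and the median over finite folds was 0.17, by the authors' deposited table. Of the 40 rows, 28 had a fold above 1 and 12 under 1, against 59.4% of tested rows above 1. At an unadjusted p under 0.05 these other targets gave 9 with a fold above 1 and 1 under 1, from the p-values of the authors' DESeq table. Among those risen were the germinal centre repressor gene Bcl6 (log2 2.75), the macrophage growth factor receptor gene Csf1r (2.16), the remodeller ATPase gene Smarca4 (1.50) and the ubiquitin ligase gene Peli1 (1.24), in the authors' deposited table. Csf1r stands on the macrophage marker list as well. Of the rows risen, 4 of 5 carried a 7mer or 8mer, as did 26 of the 40, and Bcl6 had a 6mer alone. Of 5 targets within PI3K signalling 2 rose, against 5.72% of all tested rows, in the authors' deposited table. These were Rictor, listed as 4921505C17Rik (log2 1.73, adjusted p = 0.000278), and Pik3ca (1.08, 0.0497), in the authors' deposited table. Pik3r1 (0.37, 0.604), Inpp5d (-0.14, 0.870), which has an 8mer, and Rheb (-0.07) missed the threshold in the authors' deposited table.

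Genes that work with the 10 were called at shares near those of the whole table. Over 10 lists of partner and family genes, 8 of 127 rows rose (6.30%) and 10 fell (7.87%), by the authors' deposited table, against 5.72% risen and 5.61% fallen over all tested rows. Their median log2 fold over finite folds was -0.03 by the authors' deposited table. Smarca4, which rose, and Cebpa, which missed the threshold, stand among the other reported targets as well.

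**Figure D5:**
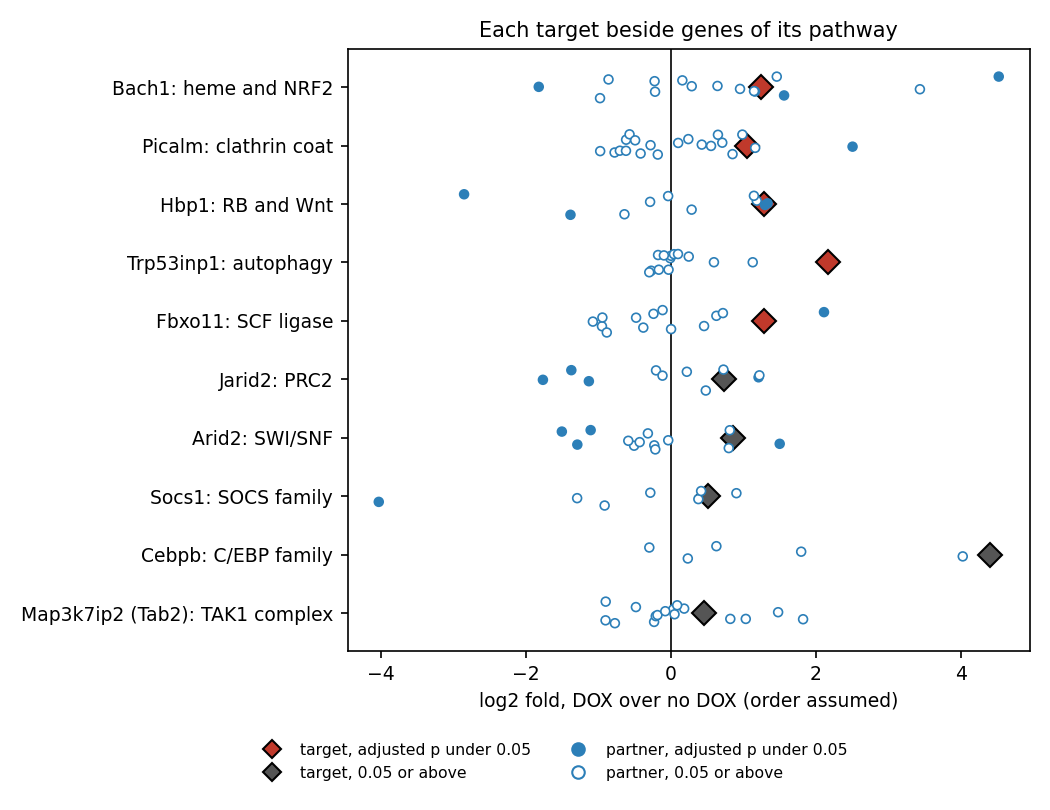
Log2 fold (DOX over no DOX, an assumed order) from the authors' deposited table of each target (diamond, red where the adjusted p is under 0.05) and of the genes of its pathway or family with a finite fold (circles, filled where the adjusted p is under 0.05). Partners scatter around 0 with a median of -0.03, while all 10 diamonds lie to the right of it.

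Around Bach1, 2 of 17 rows of heme and oxidative stress genes rose and 1 fell in the authors' deposited table. The iron exporter gene Slc40a1 (log2 4.52, adjusted p = 0.00637) and the related repressor gene Bach2 (1.56, 0.0384) rose and the thioredoxin reductase gene Txnrd1 (-1.82, 0.000123) fell in the authors' deposited table. Hmox1, the heme oxygenase gene that Bach1 silences, had a log2 fold of 3.43 and missed the threshold (0.249) in the authors' deposited table. Slc40a1 and Hmox1 are high in macrophages, whose markers had a median of 2.52 in the same comparison, and that part was not tested.

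Around Picalm, 1 of 20 rows of clathrin coat genes rose, the membrane-bending gene Fcho2 (log2 2.51, adjusted p = 1.05e-05), and 0 fell in the authors' deposited table. At an unadjusted p under 0.05 the same list gave 3 with a fold above 1 and 1 under 1, from the authors' DESeq table. The clathrin chains Clta (-0.62), Cltb (-0.98) and Cltc (-0.28) and the adaptor subunit Ap2m1 (-0.78) had adjusted p-values of 0.177 and above in the authors' deposited table. Beside Trp53inp1, 0 of 13 autophagy and partner genes, the kinase genes Hipk2 and Prkcd among them, passed in either direction, by the authors' DESeq table. The 1 that reached an unadjusted p under 0.05 was the Trp53inp1 paralog Trp53inp2 (log2 1.13, adjusted p = 0.106), by the authors' deposited table.

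Beside Hbp1, 2 of 10 genes of the retinoblastoma and Wnt pathways rose and 2 fell in the authors' deposited table. The pocket protein gene Rb1 (log2 1.30, adjusted p = 0.04999) and the Wnt effector gene Tcf7l2 (1.33, 0.0311) rose, and the cyclin D1 gene Ccnd1 (-2.85, 0.00270) and the deacetylase gene Hdac1 (-1.39, 0.00402) fell, in the authors' deposited table. Among SCF ligase genes, beside Fbxo11, the F-box gene Fbxl12 rose (2.11, 0.0235), the 1 call among 14 rows of the authors' deposited table. At an unadjusted p under 0.05 these rows gave 1 with a fold above 1 and 4 under 1, among them Skp1a and Rbx1, from the authors' DESeq table. The core subunits Skp1a (-0.95), Cul1 (-0.24) and Rbx1 (-0.95) missed the threshold in the authors' deposited table.

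Partners of the chromatin genes gave calls in both directions. Of 10 Polycomb repressive complex 2 genes 3 fell, the histone-binding genes Rbbp7 (log2 -1.77) and Rbbp4 (-1.13) and the accessory gene Phf19 (-1.37), and the accessory gene Mtf2 rose (1.21, adjusted p = 0.0494), in the authors' deposited table. The catalytic gene Ezh2 (0.72, 0.772) and the core gene Suz12 (0.22, 0.972) missed the threshold in the authors' deposited table. Of 13 SWI/SNF genes 3 fell, Actl6a (-1.50), Smarcb1 (-1.29) and Smarcc1 (-1.11), and Smarca4 rose, in the authors' deposited table. Pbrm1, which with Arid2 distinguishes PBAF, had a log2 fold of 0.81 (0.136), by the authors' deposited table.

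Relatives of Socs1, Cebpb and Tab2 gave a single call. Cish, a SOCS family gene that STAT5 induces, had a log2 fold of -4.03 (adjusted p = 5.68e-12) by the authors' deposited table and was the 1 of 8 SOCS rows to pass. Socs2 (-0.91, 0.177), Socs3 (-1.29, 0.151), Socs4 (0.90, 0.269), Socs5 (0.38, 0.697), Socs6 (0.42, 0.780) and Socs7 (-0.28, 0.937) missed the threshold in the authors' deposited table. A further Socs6 row, Cis4, has an infinite fold and missed it too. In the C/EBP family 0 of 6 passed, and 0 reached an unadjusted p under 0.05, by the authors' DESeq table. Cebpd had a log2 fold of 4.03 with an adjusted p of 0.326, close to the values of Cebpb, while Cebpa had 1.80 (0.879), Cebpg 0.63 (0.394), Cebpz -0.30 (0.964) and Ddit3 0.23 (1), in the authors' deposited table. The fold of Cebpe is infinite in the authors' deposited table, so no size is given.

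Around Tab2, 0 of 16 rows of TAK1 complex and pathway genes passed, with 3 above 1 and 2 under 1 at an unadjusted p under 0.05 in the authors' DESeq table. Its paralog Tab3, listed as Map3k7ip3, had a log2 fold of 1.48 (adjusted p = 0.0502), just outside the threshold, and Tab1, listed as Map3k7ip1, had -0.48 (0.644), in the authors' deposited table. The kinase gene Map3k7 itself had -0.19 (0.985) and the upstream ubiquitin ligase gene Traf6 1.03 (0.183) in the authors' deposited table. Tab3 and Traf6, neither of them called, each carry a 7mer-A1 as their strongest match. Among the called partners named above, Phf19, which fell, carries an 8mer, as do Smarca4 and Tcf7l2, which rose. A link between matches and the folds of partners was not tested.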

How the data were processed

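RNA of 6 tumours, 3 per group, was sequenced after ribosomal RNA depletion, per the labels' protocols. RSEM, DESeq and the build mm9 are named, with no version, per the submitters' processing notes. The deposited fold is a linear ratio, with the authors' unadjusted and adjusted p-values beside it, per the file headers. Log2 folds were taken from that ratio for 15784 tested rows, since for 579 it is 0 and for 2180 infinite. The adjusted p-values match a Benjamini-Hochberg adjustment over 18543 rows within 2.09e-06. Whether the 3 samples per group are separate animals is not labelled, so p-values reflect only how these samples spread, perhaps for technical reasons. Sequencing depth is unknown.

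Genes were called at the authors' adjusted p under 0.05, with no further test across samples. The implied standard error divides the size of the log2 fold by the normal quantile for the unadjusted p (p up to 0.9), and intervals are 1.96 of it on each side. Table names were matched to RefSeq symbols, accessions or unique synonyms (15164 tested rows), and GENCODE M21 (GRCm38) gave the longest coding transcript and 3′ UTR (14779 rows with a length). The adjustment and the site search were tested on simulated data. The genes, the lists and the rules were chosen with earlier results of these data known. Genes named are the 10 genes, up to 4 called genes per list by adjusted p, and relatives of Socs1, Cebpb and Tab2; Rhoa, Pbrm1, Ezh2, Suz12, Hmox1, Traf6, Map3k7, Trp53inp2, the clathrin and SCF core genes were added after their values were seen, and 1 further risen target is not reported here. Python 3.11.15 and pandas 2.3.3 were used. Alternatives covered the threshold, the adjustment, the fold and the site definition.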

Additional observations from a re-analysis of the deposited data

How the results depend on the processing

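Of the 10 genes, by the rows found under their names, the 5 risen became 2 at an adjusted p under 0.01 and 1 under Bonferroni. Both are stricter by construction, and the further Picalm row, with an adjusted p of 9.10e-08 in the authors' deposited table, is not counted. The count was 6 at 0.1, and it was 5 with the adjustment over finite folds, over all rows with a p, or with a fold of at least 2. The count fallen was 0 under each. Of the other reported targets the 5 risen became 3 at 0.01 and 2 under Bonferroni. They numbered 6 at 0.1 and 6 with the adjustment over finite folds. Over all tested rows 3.11% rose at 0.01 and 7.74% at 0.1, by the authors' deposited table. The 0 fallen of these targets became 1 at 0.1 (Rhoa, log2 fold -0.85 in the authors' deposited table). The 9 genes with a 3′ UTR match were 7 with an 8mer only, 9 with a 6mer, 10 over any coding transcript and 8 with the transcript of the table's own accession, a choice added after seeing the data, which Tab2 lacks. In the coding sequence of the transcript with the longest 3′ UTR 3 genes had a match, and Hbp1 had 1 in that of another transcript. No paired analysis was possible because the table holds no value per sample. For the same reason leaving out replicates was not run, and depth limits could not be set.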

Other observations

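Genes of the microRNA pathway itself gave 1 risen and 1 fallen of 15 rows for 13 genes, median log2 fold 0.30, by the authors' deposited table. That is 6.67% in each direction, near the 5.72% risen and 5.61% fallen over all tested rows, by the authors' deposited table. Tnrc6a, a scaffold of the silencing complex, rose (log2 1.20, adjusted p = 0.0171), and Drosha, the nuclear processing enzyme listed as Rnasen, fell (-1.10, 0.0383), in the authors' deposited table. A further Drosha row, Rn3, had a log2 fold of 0.78 and missed the threshold in the authors' deposited table. Ago2, the cleaving Argonaute listed as Eif2c2, had -0.35 (0.730) and Dicer1 0.26 (0.886) in the authors' deposited table. Ago2 and Dicer1 were named after their values were seen.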
